A study of Mus musculus with 6 samples.

Results

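The genes described here are 10 markers of astrocytes and radial glia, Gfap, Vim, Nes, Slc1a2, Slc1a3, Gja1, Aldoc, Aldh1l1, Aqp4 and S100b, read in mouse cortical cultures after knockdown of Neurod2. A gene was found by position. A locus of the deposited table was taken where its span on mm10 and the annotated span of the gene shared at least 0.5 of their union. All 10 genes had such a locus among the 32357 loci of the table, and 9 of them had a mean level of at least 1 FPKM (fragments per kilobase of transcript and 1000000 mapped fragments). The question asked was whether a lower level of Gfap in the knockdown was shared by the other genes that the same cells express. Cerebral cortex was taken from Balb/c mouse embryos at E14.5, and the dissociated cells were nucleofected with shRNA plasmids on a pSuperneoGFP backbone just before plating in a medium with serum. One group received a non-silencing shRNA (NS, 2 libraries) and the other an shRNA against Neurod2, either shNeurod2-1 (2 libraries) or shNeurod2-2 (2 libraries). The labels give 4 days in vitro at RNA extraction and the study's methods give 1 day more. The cultures were not sorted, so glia, progenitors and neurons were read together, transfected or not, and fewer cells of a type cannot be told apart from less RNA per cell.

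The authors pooled the libraries of each group into 1 FPKM value per locus, with both shRNAs against Neurod2 in the knockdown value. The labels do not say whether the libraries of a group came from separate cultures. No spread between libraries could be computed, the effect of each shRNA alone could not be read, and no difference below was tested. Each difference is therefore a measured size, set beside the same size over all loci. The depth of the libraries is unknown. As a check of the knockdown, Neurod2 itself was at 105 FPKM in NS and 60.3 FPKM in the knockdown, 1.74-fold lower. As a check of the culture, the neuronal tubulin gene Tubb3 was at 839 and 879 FPKM, and the marker lists of microglia and of endothelial cells summed to 0.225 and 0.184 FPKM in NS and to 0.346 and 0.360 FPKM in the knockdown.

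Radial glia are the stem cells of the embryonic cortex. They make neurons first, and later turn to making astrocytes, so that embryonic cultures hold radial glia, newborn neurons and early astrocytes side by side. Many marker genes are used by radial glia and astrocytes alike. Vim and Nes, which encode the intermediate filament proteins vimentin and nestin, are on in radial glia, while Gfap, which encodes the glial fibrillary acidic protein of the same filament family, comes up as mouse astrocytes mature or react to injury. NEUROD2 is a basic helix-loop-helix transcription factor of excitatory neurons, and factors of this class bind the E-box, CANNTG.

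Gfap was the marker that differed between the groups by more than 1.5-fold. It was at 57.4 FPKM in NS and 35.1 FPKM in the knockdown, 1.63-fold lower, with a log2 ratio of knockdown over NS of -0.71. None of the other 8 genes with a mean of at least 1 FPKM was past 1.5-fold in either direction. Among all 12780 loci at that level, 2.49% were lower by at least 1.5-fold and 2.36% were higher. The 9 markers other than Gfap had log2 ratios between -0.32 and 0.13 with a median of -0.03, and the median of all 12780 loci was also -0.03. Of all these loci, 7416 had a log2 ratio below 0 and 5363 above 0.

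**Figure D1:**
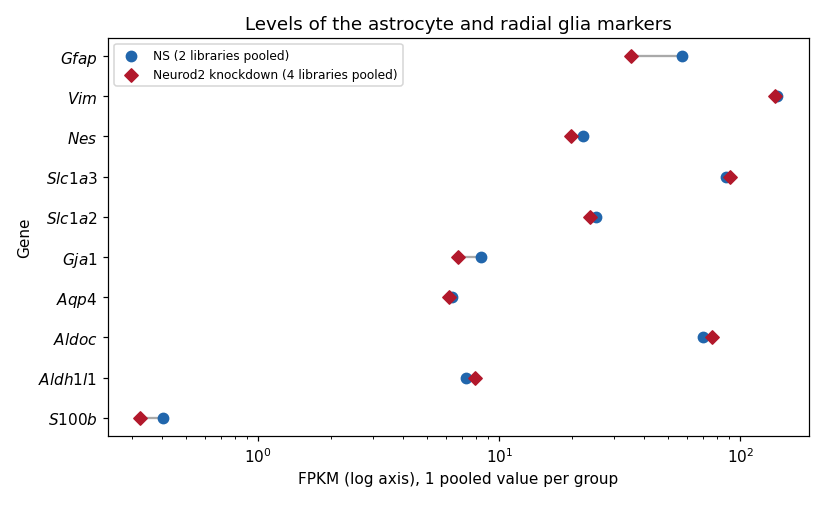
Level of each marker in NS (blue circles, 2 libraries pooled) and in the Neurod2 knockdown (red diamonds, 4 libraries pooled), in FPKM on a log axis, 1 gene per row. The gap is widest for Gfap, at 57.4 and 35.1 FPKM, and the symbols of Vim, Slc1a3 and Aqp4 nearly cover each other; there are no error bars because the table holds 1 pooled value per group.

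Among the filament genes Gfap, Vim and Nes, the level of Gfap differed most and that of Vim least on the log2 scale. Gfap lies on chromosome 11 from 102887336 to 102900912 on the minus strand of GRCm38, the assembly of mm10, and its principal transcript has 9 exons and 2648 bases. Its locus in the table runs from 102887336 to 102897200 and holds every exon base of that transcript. Vim, the marker with the highest level, was at 142 FPKM in NS and 140.0 FPKM in the knockdown (log2 ratio -0.02). Vim lies on chromosome 2 from 13573927 to 13582826 on the plus strand, and its locus holds 83.6% of the exon bases of its principal transcript. Nes, on chromosome 3 from 87971078 to 87980451, was at 22.2 and 19.8 FPKM (log2 ratio -0.17), both read back from altered cells with the help of the deposited log2 fold change. On the log2 scale the ratio of Gfap was 0.69 below that of Vim and 0.54 below that of Nes. Measured per length, Gfap stood at 40.5% of the level of Vim in NS and at 25.1% in the knockdown, and its share of the summed level of Gfap, Vim and Nes was 25.9% and 18.0%.

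The glutamate transporter genes had similar levels in both groups. Slc1a3, which encodes GLAST, the glutamate transporter of radial glia and young astrocytes, was at 87.5 FPKM in NS and 90.4 FPKM in the knockdown (log2 ratio 0.05). It lies on chromosome 15 from 8634124 to 8710764 on the minus strand. Slc1a2, which encodes GLT-1, the main glutamate transporter of mature astrocytes, was at 25.1 and 23.8 FPKM (log2 ratio -0.08), the latter value read back in the same way. It lies on chromosome 2 from 102658659 to 102790784 on the plus strand. The level of Slc1a3 was 3.49 times that of Slc1a2 in NS and 3.80 times in the knockdown, and their sum was 113 and 114 FPKM. A further locus of the table at the position of Slc1a2 held 0.272 and 0.439 FPKM.

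The channel genes were at lower levels than the filament and glutamate transporter genes of the panel. Gja1, which encodes connexin 43, the gap junction protein that couples astrocytes and radial glia, was at 8.40 FPKM in NS and 6.74 FPKM in the knockdown. Its log2 ratio of -0.32 was the lowest after Gfap among the markers with a mean of at least 1 FPKM, and 5.99% of all loci had a lower ratio. Gja1 lies on chromosome 10 from 56377330 to 56402513 on the plus strand, and the locus holds all exon bases of its principal transcript although it covers 0.519 of the union with the whole span in GENCODE M21. Aqp4, the water channel of astrocyte endfeet, was at 6.35 and 6.20 FPKM (log2 ratio -0.03). It lies on chromosome 18 from 15389496 to 15410982 on the minus strand, and its overlap of 0.522 was the smallest that was kept. The locus of Aqp4 extends beyond the gene, and an antisense gene is annotated inside it. A further locus at the same position held 0.0458 FPKM in NS and 0.0248 FPKM in the knockdown. Position does not tell which locus is Aqp4 and which the antisense gene. The higher was taken as Aqp4, and the lower would have left Aqp4 under 1 FPKM.

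The metabolic enzyme genes were slightly higher in the knockdown. Aldoc, which encodes the aldolase isoform of astrocytes, a glycolytic enzyme, was at 69.9 FPKM in NS and 76.5 FPKM in the knockdown (log2 ratio 0.13). It lies on chromosome 11 from 78322968 to 78327781 on the plus strand. Aldh1l1, a folate enzyme widely used to mark astrocytes, was at 7.30 and 7.97 FPKM (log2 ratio 0.13). A further locus at the same position held 0.366 FPKM in NS and 0.195 FPKM in the knockdown, and the higher was used. Aldh1l1 lies on chromosome 6 from 90486427 to 90600203 on the plus strand in GENCODE M21, with which its locus shared 0.432 of the union. The gene was therefore found through its shorter span in RefSeq, with an overlap of 0.984, and by GENCODE M21 alone 9 of the 10 markers would have had a locus. S100b, the gene of a calcium-binding protein of maturing astrocytes, was at 0.404 FPKM in NS and 0.323 FPKM in the knockdown (log2 ratio -0.32). It was the only marker below 1 FPKM, so S100b entered none of the counts, and adding 1 FPKM to both values brought its log2 ratio to -0.09. S100b lies on chromosome 10 from 76253853 to 76261159 on the plus strand.

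**Figure D2:**
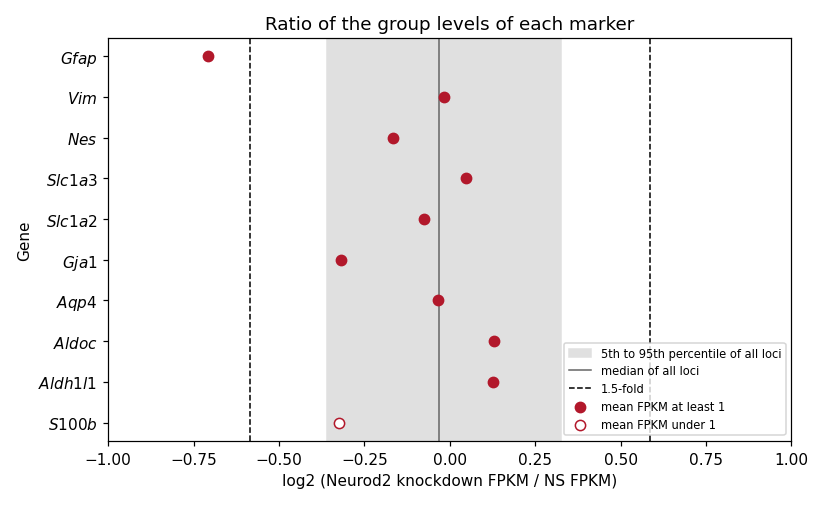
Log2 ratio of the knockdown level over the NS level for each marker (horizontal axis), 1 gene per row, beside the median and the 5th to 95th percentile (gray band) of the 12780 loci with a mean of at least 1 FPKM. Gfap, at -0.71, lies outside the dashed 1.5-fold lines and outside the band, which runs from -0.36 to 0.32; the other 9 markers lie inside the band, and S100b (open circle) is under 1 FPKM.

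Set among all loci with a mean of at least 1 FPKM, 2.04% had a ratio lower than that of Gfap. Where the span of a locus held a small RNA gene, 7.26% of 2397 loci were lower by at least 1.5-fold, and where it held none, 1.39% of 10383 loci were. No small RNA gene is annotated inside the locus of any of the 10 markers. Among the 3149 loci whose mean level was within 2-fold of that of Gfap, 73 (2.32%) had a ratio as low or lower, and among the 2493 of them with no small RNA gene inside, 21 (0.842%) had one. Gfap was chosen with its lower level already known, so these shares describe a size and are not a test. The span of Gfap also overlaps the noncoding gene Gm26668 on the other strand, which shares no exon base with the principal Gfap transcript. An antisense gene shares 10.5% of the bases of the principal Aldh1l1 transcript and another shares 1.63% of those of Slc1a2, and the sources used here do not give whether strand was used when reads were assigned.

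The number of fragments behind a value depends on transcript length as well as on FPKM. Multiplied by the length of its principal transcript, the FPKM of Gfap stood for about 152 fragments per 1000000 mapped in NS and 93.1 in the knockdown. The same product was 311 and 307 for Vim, 364 and 376 for Slc1a3, 26.7 and 21.4 for Gja1, and 0.600 and 0.480 for S100b. The ratio of S100b thus rested on the fewest fragments and those of Vim and Slc1a3 on the most. Summed over the panel, the level was 426 FPKM in NS and 407 FPKM in the knockdown. Without Gfap the sum was 369 and 372 FPKM.

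**Figure D3:**
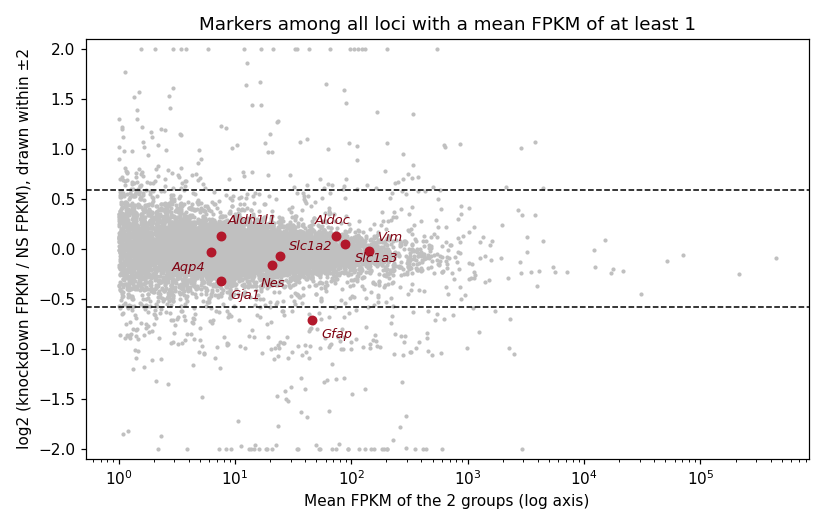
Log2 ratio of the knockdown level over the NS level (vertical axis, drawn within 2 units of 0) against the mean of the group levels (horizontal log axis, FPKM) for loci with a mean of at least 1 FPKM and both values above 0 (gray), with the 9 markers at that level in red. Dashed lines mark 1.5-fold; Gfap lies below the lower line, and the other 8 markers lie between the lines.

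Promoter sequences were looked at because NEUROD2 is a factor that binds E-boxes. The 250 bases before an annotated start of a gene were read from RefSeq on GRCm38.p6, in which 9 of the 10 markers matched by symbol (not Aqp4), Aldoc with 2 starts. The motif CANNTG reads the same on both strands, and 66.2% of 32851 such windows hold at least 1. None was found for Gfap, Vim, Nes or either start of Aldoc. A single match was found for Slc1a3, Gja1, Aldh1l1 and S100b, and 4 matches for Slc1a2. The 3 windows printed here are those of Gfap, whose level was lower, of Vim, the filament gene whose level was nearly the same, and of Slc1a2, which holds the most matches. Each of the 3 windows lies inside the GENCODE span of its gene, so none lies before the whole gene. That of Slc1a2 lies far inside the gene, which begins at 102658659 in GENCODE and has nearly the same span in RefSeq. Its window is thus that of an internal start and not of the 5′ end of the gene. They are given 5′ to 3′ on the strand of the gene, with each CANNTG in capitals: chr11:102897201-102897450 on the minus strand for Gfap, chr2:13574061-13574310 on the plus strand for Vim and chr2:102706188-102706437 on the plus strand for Slc1a2.
Gfap: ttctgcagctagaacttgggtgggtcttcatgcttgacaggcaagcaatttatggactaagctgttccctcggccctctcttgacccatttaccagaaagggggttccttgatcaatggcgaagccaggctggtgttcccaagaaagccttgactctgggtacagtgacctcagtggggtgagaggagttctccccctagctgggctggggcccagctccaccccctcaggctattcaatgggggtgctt
Vim: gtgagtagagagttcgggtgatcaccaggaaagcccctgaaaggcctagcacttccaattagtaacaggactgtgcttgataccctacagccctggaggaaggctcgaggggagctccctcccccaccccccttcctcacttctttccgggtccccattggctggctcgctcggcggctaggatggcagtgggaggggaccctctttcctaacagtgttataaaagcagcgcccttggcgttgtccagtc
Slc1a2: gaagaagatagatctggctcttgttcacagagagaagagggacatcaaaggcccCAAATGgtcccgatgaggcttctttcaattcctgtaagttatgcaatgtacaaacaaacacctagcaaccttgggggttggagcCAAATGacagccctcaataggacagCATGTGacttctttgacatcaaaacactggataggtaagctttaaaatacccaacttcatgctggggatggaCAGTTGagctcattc
The 4 matches of Slc1a2 begin 196, 112, 87 and 15 bases before that internal start. The form CAGATG, searched on both strands and part of CANNTG, was in none of the marker windows and in 14.4% of all windows. The motif TTCNNNGAA, the form bound by STAT factors, was found once for Slc1a3 and 2 times at the second start of Aldoc, and 7.02% of all windows hold it. These matches describe the letters of a short window, and a window without a match says nothing of binding elsewhere. The study reports that most NEUROD2 sites measured in cortex lay away from promoters, and those sites were not looked up here.

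Of 14 further astrocyte genes, 12 had a locus and 11 a mean of at least 1 FPKM. Apoe, the gene of the lipid carrier that astrocytes secrete, was lower by more than 1.5-fold, at 117 FPKM in NS and 75.0 FPKM in the knockdown (log2 ratio -0.64). It was the only one past that size, and none was higher. Next came the secreted chaperone gene Clu, at 24.4 and 19.2 FPKM, and Atp1b2, a sodium pump subunit of astrocytes, at 14.2 and 11.7 FPKM. Cst3, a protease inhibitor gene and the most abundant of the list, was at 434 and 413 FPKM. Among all 12780 loci with a mean of at least 1 FPKM, 2.49% were lower by at least 1.5-fold and 2.36% were higher. Of those loci, 7416 were below 0 on the log2 scale and 5363 above. Of the 11 genes, 6 were below 0 on the log2 scale and 5 above, with a median of -0.07. Those above 0 included Slc4a4, a bicarbonate transporter gene with the highest ratio of the list, at 4.44 and 5.04 FPKM, and Sparcl1, which encodes the secreted protein hevin, at 64.7 and 71.1 FPKM. Gjb6, the other connexin gene of astrocytes, was listed at 0 in both groups. Apoe is also expressed by microglia, and of the 6 microglia markers with a locus the highest by its mean, Aif1, was at 0.0847 and 0.183 FPKM, while Tyrobp and C1qb were listed at 0. The part of microglia in the level of Apoe was not tested.

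Of 12 further radial glia genes, 9 had a locus and 8 a mean of at least 1 FPKM. None was past 1.5-fold in either direction, and their median log2 ratio was -0.02. Fabp7, which encodes the brain lipid-binding protein of radial glia, was at 1057 FPKM in NS and 1227 FPKM in the knockdown. Hopx, a marker of outer radial glia, was at 26.3 and 35.1 FPKM, the highest ratio of the list (log2 ratio 0.42), and the Notch target gene Hes5 was at 65.2 and 60.7 FPKM. Of 8 proliferation genes, 6 had a locus, none was past 1.5-fold, and their median log2 ratio was 0.01. Top2a, a topoisomerase gene of dividing cells, was at 69.0 and 70.0 FPKM, the mitotic genes Ccnb1 and Cdk1 were at 8.08 and 8.53 FPKM and at 21.5 and 20.5 FPKM, and the replication gene Mcm2 was at 18.4 and 16.4 FPKM.

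**Figure D4:**
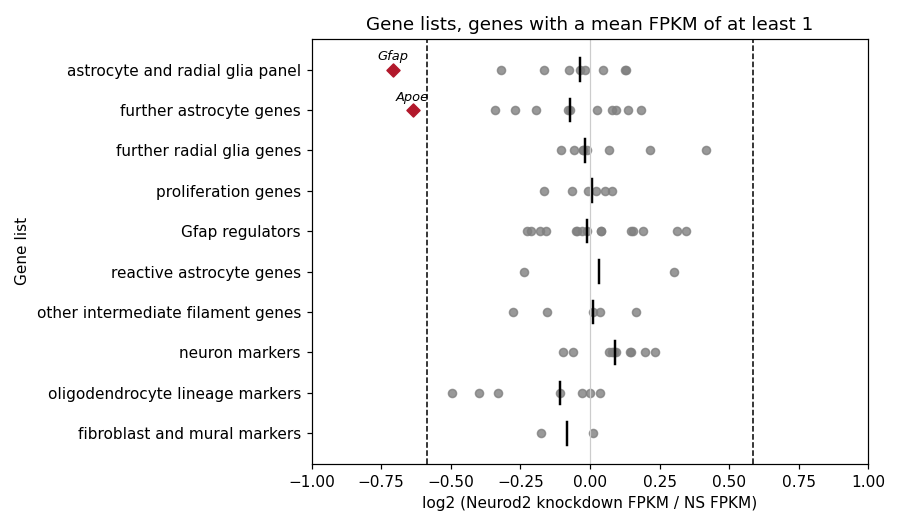
Log2 ratio of the knockdown level over the NS level (horizontal axis) of the genes of 10 lists with a mean of at least 1 FPKM, 1 list per row and 1 point per gene, with the median of each list as a black bar. Red diamonds are past the dashed 1.5-fold lines, and they are Gfap and Apoe. The list of genes from the same families as the markers is not drawn, and in it S100a13 was higher by more than 1.5-fold.

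Gfap transcription is known to be driven by cytokine receptors that act through STAT3, by BMP receptors that act through SMAD factors, and by Notch and nuclear factor I. Of 15 genes of these routes, all 15 had a locus with a mean of at least 1 FPKM, none was past 1.5-fold, and their median log2 ratio was -0.01. Among all 12780 loci at that level, 2.49% were lower by at least 1.5-fold and 2.36% were higher. These are RNA levels, and the activity of the routes was not tested. Lifr, a receptor subunit for leukemia inhibitory factor, was at 8.86 FPKM in NS and 11.2 FPKM in the knockdown. Stat3 was at 12.1 and 12.4 FPKM. Id3, a target gene of BMP signaling, was at 42.4 and 52.7 FPKM. Notch1 was at 26.6 and 22.7 FPKM, and Nfix, a nuclear factor I gene, at 78.4 and 70.3 FPKM. Of 10 genes of reactive astrocytes, 8 had a locus and 2 reached 1 FPKM. These were the adhesion receptor gene Cd44, at 3.18 and 3.92 FPKM, and the lipid receptor gene S1pr3, at 3.17 and 2.69 FPKM, and Lcn2 was listed at 0 in both groups.

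Of 10 other intermediate filament genes, 7 had a locus and 5 reached 1 FPKM, and none of the 5 was past 1.5-fold. Synm, whose protein joins vimentin and nestin in filaments, was at 6.41 FPKM in NS and 6.57 FPKM in the knockdown. Nefl, the light neurofilament gene of neurons, was at 34.0 and 38.2 FPKM, and the nuclear lamin genes Lmnb1 and Lmnb2 at 59.1 and 48.8 FPKM and at 17.9 and 16.1 FPKM.

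Markers of the other cells that the culture could hold were read beside these genes. Of 10 neuron markers, 8 were above 0 on the log2 scale and 2 below, none past 1.5-fold, with a median of 0.09. Map2, a microtubule protein gene of dendrites, was at 302 FPKM in NS and 346 FPKM in the knockdown. Syt1, a synaptic vesicle gene, was at 28.2 and 33.2 FPKM, and Gap43, a gene of growing axons, at 316 and 349.7 FPKM. The summed level of the list was 2449 and 2631 FPKM. Of 7 oligodendrocyte lineage markers, 6 were below 0 and none past 1.5-fold, with a median of -0.11. Over all 12780 loci the signs stood at 7416 below 0 and 5363 above. The lowest was Sox10, a lineage factor gene, at 2.76 and 1.96 FPKM, followed by the progenitor markers Cspg4 (log2 ratio -0.40) and Pdgfra, at 10.3 and 8.17 FPKM. Olig1, the most abundant, was at 56.4 and 52.4 FPKM. The 8 fibroblast and mural markers summed to 4.40 FPKM in NS and 7.09 FPKM in the knockdown, and the 2 that reached 1 FPKM, Dcn and Pdgfrb, had log2 ratios of 0.01 and -0.18. The other 6 had means under 1 FPKM and entered no count. The largest differences in level among them were those of Acta2, the smooth muscle actin gene, at 0.409 and 1.28 FPKM, and of the collagen gene Col1a1, at 0.125 and 0.975 FPKM. The collagen gene Col3a1 was at 0.171 and 0.765 FPKM, and Postn at 0.262 and 0.834 FPKM. The collagen gene Col1a2 was at 0.150 and 0.152 FPKM, and Lum was lower, at 0.165 and 0.138 FPKM. The ependymal and choroid markers summed to 0.0942 and 0.229 FPKM, with Folr1 highest by its mean at 0.0616 and 0.179 FPKM, and the highest endothelial marker by its mean, Pecam1, was at 0.0846 and 0.162 FPKM. Vim is also on in fibroblasts and mural cells. The part of these cells in the level of Gfap was not tested.

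Closeness to Gfap by both levels was measured as the distance on the log2 scale over the 2 pooled values. Among the loci that carry a single gene name, the closest were Rttn (59.0 and 35.4 FPKM, distance 0.042), Trps1 (56.8 and 32.8 FPKM, distance 0.101), Rpl38 (55.7 and 31.5 FPKM, distance 0.165) and Zfp821 (48.6 and 37.5 FPKM, distance 0.256). A small RNA gene lies inside the loci of Rttn and Trps1 and none inside those of Rpl38 and Zfp821. None of the 4 was among the genes listed here as glial.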

How the data were processed

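The deposited table came from 6 libraries of 50 bp single-end reads. After a quality filter, the authors aligned reads to mm10 by TopHat, built transcripts by Cufflinks and ran Cuffdiff between the groups. The submitters' notes name these tools without a version. The deposited values are FPKM, 1 per group and locus, as the authors' Cuffdiff run gave them; the depth of the libraries is unknown. The authors' log2 fold change, test statistic, p-value and q-value columns hold their own comparison. None is reported here, and the log2 fold change served only to read back altered cells, as follows.

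Some FPKM cells held times in place of numbers, the whole part standing as hours and the decimals as minutes. Both FPKM values stood as numbers in 27329 loci. In 4903 loci the altered cells were read back, keeping the reading whose ratio gave the deposited log2 fold change within 2e-05. Another 125 loci stayed open and were left out, as were 10 loci with the Cuffdiff status HIDATA and 3 with FAIL. Among the 10 markers this concerned Nes (both values) and Slc1a2 (the knockdown value): each of these cells allowed 27 readings, so that the ratios of these genes rest on the authors' column, while those of the other 8 do not. Among the other genes named, the same holds for Clu, Atp1b2, Fabp7, Cdk1, Mcm2, Stat3, Lifr, Notch1, Lmnb2, Pdgfra and Dcn. In 3000 simulated loci 99.8% were read back right, 0.2% stayed open and none was wrong.

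Spans came from GENCODE M21 (GRCm38) and RefSeq (GRCm38.p6), the larger overlap counting, and where several loci matched, the one with the highest mean FPKM was used. Ratios are log2 of knockdown FPKM over NS FPKM with no pseudocount, and a size of 1.5-fold at a mean of at least 1 FPKM was counted. With 1 pooled value per group no test was possible. The markers and the 13 further lists (127 genes) were chosen with earlier results of these data known. Named genes are the markers, Neurod2, in each list the most abundant gene and the 3 with the largest ratios at 1 FPKM or more, and the 4 loci closest to Gfap among those with a single gene name. Stat3, Synm, Gjb6, Lcn2, Tyrobp, C1qb, Slc4a4, Sparcl1, Acta2, Col1a1, Col1a2, Col3a1, Postn and Lum were added after their values were seen. A list gene with no matching locus was not analysed here. Python 3.11.15 with pandas 2.3.3, numpy 2.4.6 and matplotlib 3.10.9 was used.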

Additional observations from a re-analysis of the deposited data

How the results depend on the processing

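No paired analysis was possible because the table holds 1 pooled value per group, and for the same reason no library could be left out. The log2 ratio of Gfap stayed between -0.71 and -0.68 with a pseudocount of 1 or 0.1 FPKM, centred on the median of all loci, with a stricter overlap of 0.8, with loci summed, and with GENCODE M21 spans alone, an alternative chosen after seeing the data. Gfap remained the 1 marker counted as lower, and 0 were higher, with no minimum level, a minimum of 5 FPKM or intact cells alone. The same held at the smaller of the fold sizes tried, where Gja1, 1.248-fold lower, fell just short of the count. S100b, 1.251-fold lower, was past that smaller size but was left out by its level under 1 FPKM. At a size of 2-fold 0 markers were lower. Aldh1l1 has no value with GENCODE M21 spans alone, and Aqp4 has none at an overlap of 0.8. With no minimum level, the radial glia, reactive astrocyte, paralog, microglia, endothelial, fibroblast and ependymal lists gained genes past 1.5-fold, all of them under 1 FPKM. What the pooled values cannot show is whether the size of Gfap or Apoe exceeds the spread between cultures, or whether each shRNA gave it.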

Other observations

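Paralogs of the panel genes were looked at beside them. All 17 had a locus and 13 reached a mean of 1 FPKM, with a median log2 ratio of -0.07, or 0.09 over the loci whose cells stood as numbers. S100a13, a small calcium-binding protein gene of the family of S100b, was the only one past 1.5-fold, at 1.17 FPKM in NS and 2.00 FPKM in the knockdown, and it falls out of the count with a minimum of 5 FPKM. Among all 12780 loci with a mean of at least 1 FPKM, 2.36% were higher by at least 1.5-fold and 2.49% were lower. Aqp11, a water channel gene, was at 2.94 and 3.87 FPKM. Slc1a4, a transporter of neutral amino acids in the family of Slc1a2 and Slc1a3, was at 67.2 and 53.5 FPKM, the lowest ratio of the list (log2 ratio -0.33). Aldoa, the broadly expressed aldolase gene, was at 121 and 114 FPKM, while its astrocyte counterpart Aldoc was higher in the knockdown. These are single pooled values per group, and none of the differences was tested.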
